A study of Mus musculus with 67 samples.

Results

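The comparison was between p2 and pMN neural progenitors (NPs) at day 6 of differentiation, in chromatin accessibility measured by CaTS-ATAC. Its members were the 10 day 6 libraries of these cell types among 67 libraries in the series, 6 of p2 and 4 of pMN. The p2 libraries came from 10 nM SAG (n = 3) and 100 nM SAG (n = 3), and the pMN libraries from 100 nM SAG (n = 2) and 500 nM SAG (n = 2). SAG is an agonist of Smoothened and stands in for the Shh morphogen. In all groups the cells were 1 wild-type mouse ES line, HM1, taken through bFGF and then CHIR99021 together with inhibitors of TGF-beta and BMP receptors, and given 100 nM RA with SAG from day 3 onwards. In CaTS-ATAC, a transposase first marks the open chromatin of fixed cells, which are then stained for intracellular transcription factors and sorted. From live SOX2+ cells, the sort defined p2 as cells with PAX6 and NKX6.1 but without OLIG2, and pMN as cells with OLIG2, leaving out those that also carried the p3 marker. All replicates were of the same line, so that p values do not measure the spread between lines or animals. The titles number the p2 libraries 1 to 3 and the pMN libraries 2 and 3 at each SAG concentration. Libraries with the same number varied together and may share a differentiation. Sharing within a cell type makes p values over the 10 libraries too small, while pairing between p2 and pMN, left out of the main fit, acts the other way. With the number as a block, 10318 elements had an unadjusted p under 0.05 in limma, against 8703 without it.

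In the ventral neural tube, progenitor domains form in response to graded Shh. The pMN domain lies ventral to p2, makes motor neurons and later oligodendrocyte precursors, and is defined by OLIG2, a basic helix-loop-helix repressor. The p2 domain makes V2 interneurons and expresses IRX3, and cross-repression between OLIG2 and IRX3 sets the boundary between the domains. An ATAC-seq element is a stretch of open chromatin, and its read count measures how many Tn5 cuts it received, not the expression of a gene. Each element is given here with the gene assigned to it by the authors' annotation and its distance from that gene's start, and an assignment does not show that the element regulates the gene.

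The sequences of 7 elements discussed below are shown, the first 4 with higher accessibility in pMN and the last 3 in p2. Those of Olig2 at 40921 bp, Mnx1 and Foxn4 had log2 ratios of -1.98, -1.92 and 1.82, short of the threshold of 2 for a call. They were read from mm10, as the central 300 bp of each element on the + strand, and are from chr16:91234638-91234937, chr16:91184480-91184779, chr5:29485019-29485318, chr14:66502347-66502646, chr3:18186464-18186763, chr13:105451502-105451801 and chr5:114279464-114279763. Capitals mark CAGATG (an E-box), CATTGT (a SOX core), GGAATG (a TEAD core) and TGGGTGG (a GLI core), on either strand. The Cyp7b1 window held none of them.
Olig2 9237 bp downstream: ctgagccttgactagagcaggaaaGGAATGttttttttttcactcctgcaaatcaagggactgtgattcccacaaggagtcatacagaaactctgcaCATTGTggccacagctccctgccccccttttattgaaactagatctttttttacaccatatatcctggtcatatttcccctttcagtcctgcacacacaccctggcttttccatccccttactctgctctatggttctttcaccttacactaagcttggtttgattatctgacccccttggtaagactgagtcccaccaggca
Olig2 40921 bp upstream: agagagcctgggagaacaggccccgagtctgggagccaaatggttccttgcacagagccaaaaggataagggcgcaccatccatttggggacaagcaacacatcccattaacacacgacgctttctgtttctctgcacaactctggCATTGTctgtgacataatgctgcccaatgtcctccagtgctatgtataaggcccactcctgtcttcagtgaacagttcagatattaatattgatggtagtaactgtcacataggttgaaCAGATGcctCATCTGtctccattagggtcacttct
Mnx1 6698 bp upstream: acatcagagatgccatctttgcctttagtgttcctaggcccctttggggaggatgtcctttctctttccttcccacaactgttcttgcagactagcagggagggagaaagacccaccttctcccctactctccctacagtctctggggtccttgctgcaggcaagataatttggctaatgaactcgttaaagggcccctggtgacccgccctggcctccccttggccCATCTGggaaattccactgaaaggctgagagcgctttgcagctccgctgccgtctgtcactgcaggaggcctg
Adra1a 132755 bp upstream: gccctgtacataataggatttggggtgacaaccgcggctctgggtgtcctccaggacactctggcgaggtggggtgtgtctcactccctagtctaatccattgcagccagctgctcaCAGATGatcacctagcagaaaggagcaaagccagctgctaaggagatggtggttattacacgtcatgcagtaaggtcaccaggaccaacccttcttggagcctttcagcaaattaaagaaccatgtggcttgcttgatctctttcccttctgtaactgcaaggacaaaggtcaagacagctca
Cyp7b1 56725 bp downstream: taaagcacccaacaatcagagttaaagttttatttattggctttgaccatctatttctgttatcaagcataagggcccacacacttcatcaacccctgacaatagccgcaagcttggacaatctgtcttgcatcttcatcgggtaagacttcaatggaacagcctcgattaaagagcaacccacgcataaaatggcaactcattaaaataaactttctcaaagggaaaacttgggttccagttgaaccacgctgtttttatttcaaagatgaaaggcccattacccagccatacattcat
Htr1a 7958 bp downstream: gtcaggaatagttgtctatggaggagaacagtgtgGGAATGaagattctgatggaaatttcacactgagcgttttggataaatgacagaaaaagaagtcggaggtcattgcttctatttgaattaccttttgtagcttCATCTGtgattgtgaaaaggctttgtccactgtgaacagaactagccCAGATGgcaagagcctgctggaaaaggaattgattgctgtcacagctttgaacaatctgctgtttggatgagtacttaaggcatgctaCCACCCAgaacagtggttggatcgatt
Foxn4 5852 bp upstream: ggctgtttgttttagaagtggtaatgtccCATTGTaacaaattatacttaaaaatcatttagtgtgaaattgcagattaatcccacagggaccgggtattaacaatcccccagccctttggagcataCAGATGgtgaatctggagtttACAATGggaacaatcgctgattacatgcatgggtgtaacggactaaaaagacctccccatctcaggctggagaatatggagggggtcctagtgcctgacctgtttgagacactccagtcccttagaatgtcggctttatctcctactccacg

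The libraries were of similar depth, with 15318155 to 26303485 reads in elements for p2 and 18619506 to 25148394 for pMN. One p2 library, 100 nM replicate 3, was the shallowest and stood apart from its group. Its squared Pearson correlation with the 5 other p2 libraries, across elements, was 0.836 to 0.902, against 0.941 to 0.976 among those 5, and it was 0.861 to 0.908 with the pMN libraries. With the p0-1 libraries of day 6 it was 0.868 to 0.916. Elements are not independent, and the values are a description. Summed over the 52 tested elements of p3 and floor plate genes, it had a normalized read count of 22172, where the 5 other p2 libraries had 17409 to 19474 and pMN 19778 to 22934. Over the 62 of postmitotic neuron genes it had 20819, where the others had 25080 to 26298 and pMN 28964 to 29973. Over those of NMP and mesoderm genes the sum was 5673, against 5482 to 6008 in the other p2 libraries and 5727 to 6084 in pMN. Over motor neuron determinants it was 29964, below the 33414 to 35911 of the other p2 libraries and the 37008 to 40801 of pMN. Over p2 identity genes it was 50216, below the 56686 to 59915 of the other p2 libraries and the 54563 to 58431 of pMN. The part of these differences in the results was not tested, and results are given with and without this library where it matters. In bulk libraries, fewer cells with an open element and less opening per cell cannot be told apart.

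Accessibility differed between p2 and pMN at a small set of elements, nearly all of them away from promoters. Of 32893 elements tested, 142 were called, with an adjusted p under 0.01 in limma and an absolute log2 ratio above 2 (0.432%). In 82 of them accessibility was higher in p2 (0.249%), with a median log2 ratio of 2.30, and in 60 it was higher in pMN (0.182%), with a median of -2.23. The median over all tested elements was -0.02. When libraries were averaged over SAG within a replicate number, limma called 0 elements (0.0%), while 6253 had an unadjusted p under 0.05. After averaging, 54 of the 58 named elements fell short of the adjusted p of 0.01 that they had passed before. The other 4, at Irx3, Nkx6-2 and the Foxn4 promoter, had not passed it in the main fit either, so that no named element passed. The p2 and pMN libraries did not overlap in 76 of the 82 and in 59 of the 60, where 13.1% of all tested elements had no overlap. The same libraries chose these elements, so that the lack of overlap follows from the choice in part and is no separate test. At an absolute log2 ratio above 1, 517 elements were higher in p2 (1.57%) and 794 in pMN (2.41%).

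**Figure D1:**
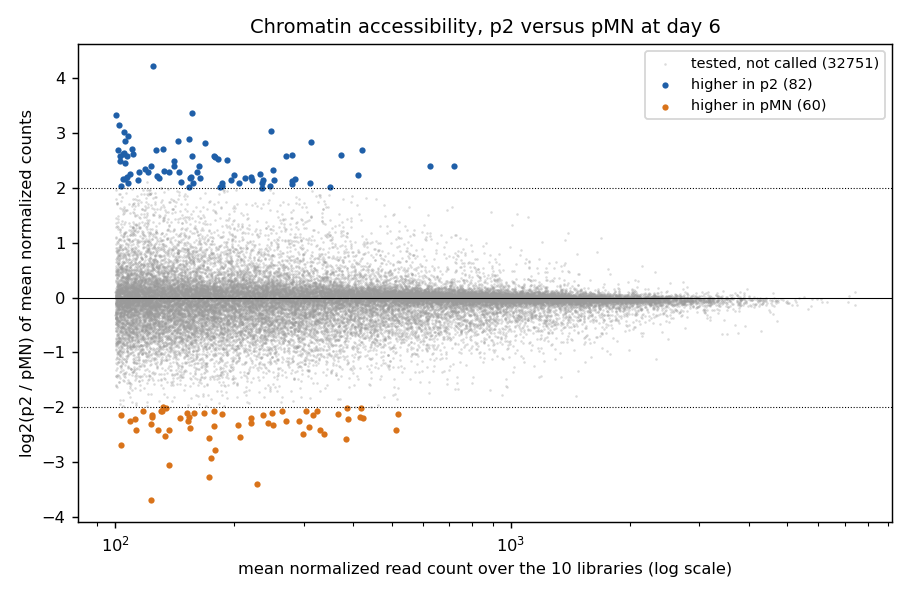
Log2 ratio of the mean normalized read count in p2 (n = 6) to that in pMN (n = 4) against the mean over the 10 libraries (log scale), for 32893 elements. The 82 called elements higher in p2 (blue) and the 60 higher in pMN (orange) lie beyond the dotted lines at 2 and -2, among grey elements not called, and most have a low mean.

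Without p2 100 nM replicate 3, 214 elements were called (0.649%), 132 higher in p2 and 82 in pMN, and 136 of the 142 were among them. Leaving out pMN 100 nM replicate 2 gave 215, with 144 higher in p2 and 71 in pMN. The split between directions moved with scaling, from 82 and 60 to 105 and 49 when each library was centred on its median, and to 116 and 42 when libraries were centred within bins of GC content.

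The Olig2 and Olig1 locus was more accessible in pMN at most of its tested elements. Olig2 encodes the factor that defines pMN, and Olig1 its neighbour and paralog. Of 27 elements assigned to these genes 17 were tested, all 17 had a log2 ratio below 0, and in 13 the adjusted p was under 0.01 (limma). Their log2 ratios ranged from -2.28 to -0.15 with a median of -0.99, and 8 were beyond -1. The libraries of the 2 cell types did not overlap in 14 of the 17. OLIG2 itself was used to sort the cells, so that a difference at this locus is not independent of the gate. The part of the gate was not tested.

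The element 9237 bp downstream of the Olig2 start (chr16:91231830-91237744) had the largest ratio there. Its normalized read count in p2 was 54.4 at the lowest, 75.5 at the median and 153 at the highest, the last in 100 nM replicate 3. In pMN it was 315 and 635 at 100 nM and 321 and 410 at 500 nM. Every pMN library was above every p2 library, and the log2 ratio was -2.28 ± 0.35 (SE, adjusted p = 0.000456, limma). The intronic element 742 bp from the Olig2 start was open in both cell types. Its normalized read count was 688 to 1217 in p2, with a median of 917, and it was 2361 and 2338 in pMN at 100 nM and 2302 and 2298 at 500 nM. The log2 ratio was -1.34 ± 0.14 (SE, adjusted p = 0.000315, limma). Upstream, 40921 bp from Olig2 (chr16:91184327-91184932), accessibility was 52.2 to 94.8 in p2, with a median of 81.5, and 259, 350, 227 and 390 in pMN. The groups did not overlap there, and the log2 ratio was -1.98 ± 0.22 (SE, adjusted p = 0.000252, limma). In p0-1 NPs, the next domain dorsally, this element had a mean of 17.3 ± 6.95 (SD, n = 5), below the mean of 77.7 ± 16.8 in p2 (SD, n = 6). The element 28122 bp from Olig1 had a mean of 577 ± 80.9 in p2 (SD, n = 6) and 1225 ± 161 in pMN (SD, n = 4), a log2 ratio of -1.09 ± 0.13 (SE).

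**Figure D2:**
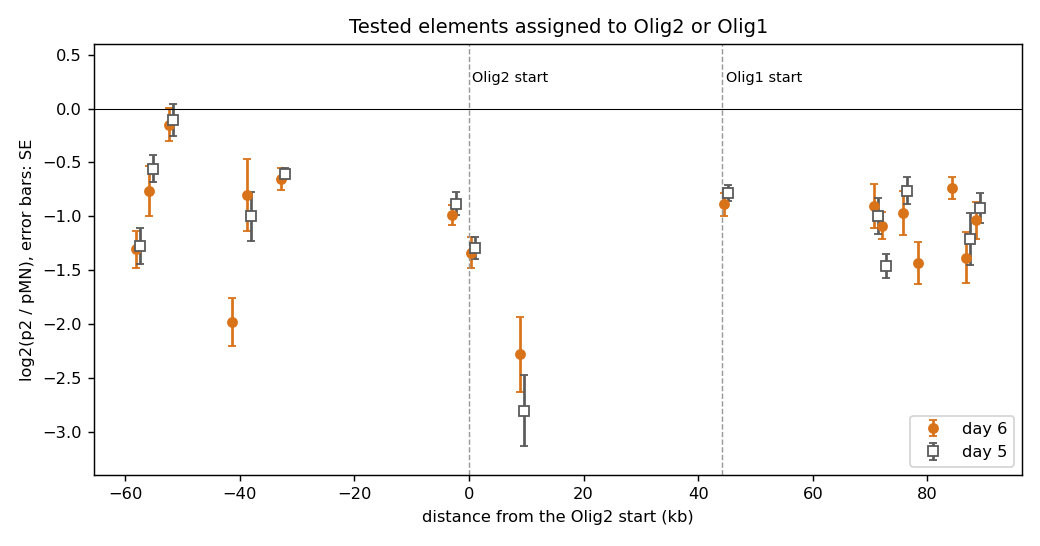
Log2 ratio of p2 to pMN (y axis, bars are SE) at the tested elements assigned to Olig2 or Olig1, against distance from the Olig2 start in kb, at day 6 (filled circles) and day 5 (open squares). Dashed lines mark both gene starts, and all 17 elements tested at day 6 lie below 0, from -0.15 to -2.28.

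Motor neuron genes carried elements that were more accessible in pMN. Of 60 tested elements of motor neuron determinants, 5 (8.33%) were higher in pMN beyond a log2 ratio of 1 and 0 in p2, where 2.41% of all tested elements were higher in pMN. Mnx1 encodes HB9, a homeodomain factor of motor neurons, and its element 6698 bp upstream (chr5:29484063-29486273) had a normalized read count of 65.0 to 119 in p2, with a median of 87.1, and of 333, 285, 318 and 374 in pMN. The groups did not overlap, with a log2 ratio of -1.92 ± 0.15 (SE, adjusted p = 0.000103, limma). Lhx3 and Lhx4 encode LIM homeodomain factors of motor neurons and V2 interneurons alike. At Lhx3, 32803 bp from the start, accessibility was 281 to 536 in p2, with a median of 319, and 801, 1100, 672 and 1177 in pMN, a log2 ratio of -1.33 ± 0.26. At Lhx4, 9189 bp upstream, it was 548 to 821 in p2, with a median of 600, and 1192, 1908, 1261 and 1933 in pMN, a log2 ratio of -1.27 ± 0.21. The groups did not overlap at these elements, and the pMN libraries numbered 3 were above those numbered 2. A second Lhx3 element, 29027 bp from the start, had a log2 ratio of -1.56 ± 0.38 (SE), with overlapping libraries. Slc18a3, the vesicular acetylcholine transporter, had an element 24841 bp from its start with 68.9 to 134 in p2, a median of 95.4, and 240, 314, 298 and 458 in pMN. There the log2 ratio was -1.72 ± 0.27, and p3 was higher still, with a mean of 654.

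Genes of p2 identity showed fewer differences. Of 75 tested elements of this list, 2 were higher in p2 beyond a log2 ratio of 1 and 0 in pMN, where 1.57% of all tested elements were higher in p2. Without p2 100 nM replicate 3 these were 4 and 0, where 2.88% of all tested elements were higher in p2 and 3.37% in pMN, and with the replicate block 3 and 1, where 1.42% and 2.77% were. Foxn4 encodes a forkhead factor of p2 progenitors that acts in the choice between V2 subtypes. Its element 5852 bp upstream (chr5:114279214-114280013) had a normalized read count of 249 in p2 100 nM replicate 3, the lowest p2 library, with a median of 649 and a highest value of 825, and of 238, 170, 143 and 130 in pMN. The groups did not overlap, by a small margin, and the log2 ratio was 1.82 ± 0.28 (SE, adjusted p = 0.00246, limma), or 1.98 without that library. Accessibility at the Foxn4 promoter, 377 bp upstream, was 218 to 327 in p2, with a median of 304, and 235, 195, 212 and 175 in pMN, with a log2 ratio of 0.53 ± 0.12 (SE, adjusted p = 0.0231, limma) that was 0.60 without replicate 3 (adjusted p = 0.00201, limma). Shox2, a homeobox gene of a subset of V2 neurons, had an element 234745 bp from its start with 352 to 889 in p2, a median of 781, and 342, 357, 289 and 311 in pMN. The lowest p2 value, again of replicate 3, fell among the pMN values, and the adjusted p of 0.00667 (limma, log2 ratio 1.16 ± 0.17 SE) became 0.0181 with the replicate number as a block.

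At Irx3, which represses and is repressed by Olig2, 18 of 52 elements were tested and 0 passed an adjusted p of 0.01 in limma. The Irx3 element with the smallest p, 7582 bp from the start, had 473 to 881 in p2, with a median of 751, and 572, 341, 415 and 260 in pMN. The groups overlapped, and the log2 ratio of 0.88 ± 0.27 had an adjusted p of 0.0151 (limma), 0.00268 without p2 100 nM replicate 3 and 0.00382 with the replicate block. The largest log2 ratio at Irx3 was 1.17 ± 0.34, at an element 263627 bp upstream, with an adjusted p of 0.0154 (limma) that was 0.00124 without that library. Irx5, its neighbour in the cluster, had an element 9211 bp from the start with 230 to 511 in p2, a median of 450, and 234, 93.9, 168 and 65.4 in pMN. The log2 ratio was 1.56 ± 0.42 (SE, adjusted p = 0.00565, limma), although the lowest p2 and the highest pMN library crossed.

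At the tested elements of Pax6, Nkx6-1 and Nkx6-2 the log2 ratios over the 10 libraries were all below 1 in size. Elements of these genes that did not pass the filter on the mean are not described for the 10 libraries. PAX6 and NKX6.1 were also used to sort the cells, and the part of the gate was not tested. Pax6, which marks p2 and more dorsal NPs, had 6 tested elements, all with a log2 ratio above 0, and 2 of them passed. One was an intronic element 44180 bp from its start with 911 to 1495 in p2, a median of 1333, and 1008, 689, 677 and 572 in pMN. The log2 ratio was 0.78 ± 0.21 (SE, adjusted p = 0.00797, limma), which became 0.0133 with the replicate block. The other, 61502 bp from the start, had an adjusted p of 0.00916 (limma). Between p2 of 10 nM and pMN of 500 nM SAG a Pax6 element was called at a log2 ratio of 2.08. Nkx6-1, a homeobox gene shared by p2, pMN and p3, had 18 tested elements, of which 1 passed, 73586 bp from the start, with 357 to 492 in p2, a median of 439, and 581, 722, 564 and 705 in pMN. The log2 ratio of this element was -0.58 ± 0.13 (SE, adjusted p = 0.00821, limma). Of 6 tested elements of its paralog Nkx6-2, 0 passed, and the nearest to passing had a log2 ratio of -0.43 ± 0.10 (adjusted p = 0.0175, limma, and 0.0025 without p2 100 nM replicate 3).

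The largest differences lay at genes outside the lists of domain identity and neuronal determinants. Cyp7b1, an oxysterol hydroxylase, had an intronic element 56725 bp from its start (chr3:18186338-18186888) with 67.6 to 264 in p2, a median of 227, and 18.8, 12.2, 7.01 and 4.67 in pMN. No library of one group reached the other, and p2 was 18.7-fold higher, a log2 ratio of 4.23 ± 0.48 (SE, adjusted p = 0.000252, limma). A second intronic element of Cyp7b1, 53446 bp from the start, had a log2 ratio of 2.19 ± 0.21 (SE). Htr1a, a serotonin receptor, had an element 7958 bp from its start (chr13:105451109-105452193) with 181 to 443 in p2, a median of 424, and 59.2, 37.6, 49.1 and 39.7 in pMN. Its lowest p2 value was that of 100 nM replicate 3, still above all pMN values, and the log2 ratio was 3.04 ± 0.22 (SE, adjusted p = 0.000103, limma). Near Olfm4, a secreted glycoprotein, accessibility was 84.4 to 336 in p2, with a median of 263, and 16.1, 25.4, 26.1 and 26.9 in pMN, a log2 ratio of 3.37 ± 0.26. The other elements of the 10 with the largest ratios towards p2 were assigned to Aco1, 1700116B05Rik, Lrrc10, Mroh4, Spock1, Ptprk and Cdk5rap2, with log2 ratios from 3.34 ± 0.35 at Aco1 to 2.85 ± 0.31 at Cdk5rap2. Fat4, a protocadherin of the planar polarity pathway, had 2 called elements, 26542 and 751250 bp from its start, with log2 ratios of 2.40 ± 0.33 and 2.30 ± 0.26. Nlgn1, a synaptic adhesion molecule, had an intronic element 185917 bp from its start with 473 to 1146 in p2 and 130 to 243 in pMN.

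In the direction of pMN, the largest ratio was at an intronic element of Sntb2, a syntrophin of the dystrophin complex, 15994 bp from its start. Its normalized read count was 6.52 to 39.8 in p2, with a median of 16.8, and 253, 259, 292 and 298 in pMN, so that pMN was 13.0-fold higher (log2 ratio -3.70 ± 0.41, adjusted p = 0.000138, limma). Upstream of Adra1a, an adrenergic receptor (chr14:66502040-66502952), accessibility was 23.4 to 44.9 in p2, with a median of 34.2, and 260, 246, 338 and 313 in pMN, a log2 ratio of -3.06 ± 0.17 (SE, adjusted p = 2.78e-05, limma), and p0-1 and p3 had means of 9.47 ± 3.51 (SD, n = 5) and 20.3 ± 4.89 (SD, n = 4). At both elements the pMN libraries were all far above every p2 library, p2 100 nM replicate 3 included. Of the 10 with the largest ratios towards pMN, 7 more were assigned to D230030E09Rik, Mir6351, E030025P04Rik, Nsmaf, Tdrd7, Cdca2 and Kcnma1, with log2 ratios from -3.27 ± 0.24 at D230030E09Rik to -2.55 ± 0.65 at Kcnma1. At Kcnma1, a potassium channel, the pMN values were 166, 528, 187 and 766, those numbered 3 being far above those numbered 2.

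**Figure D3:**
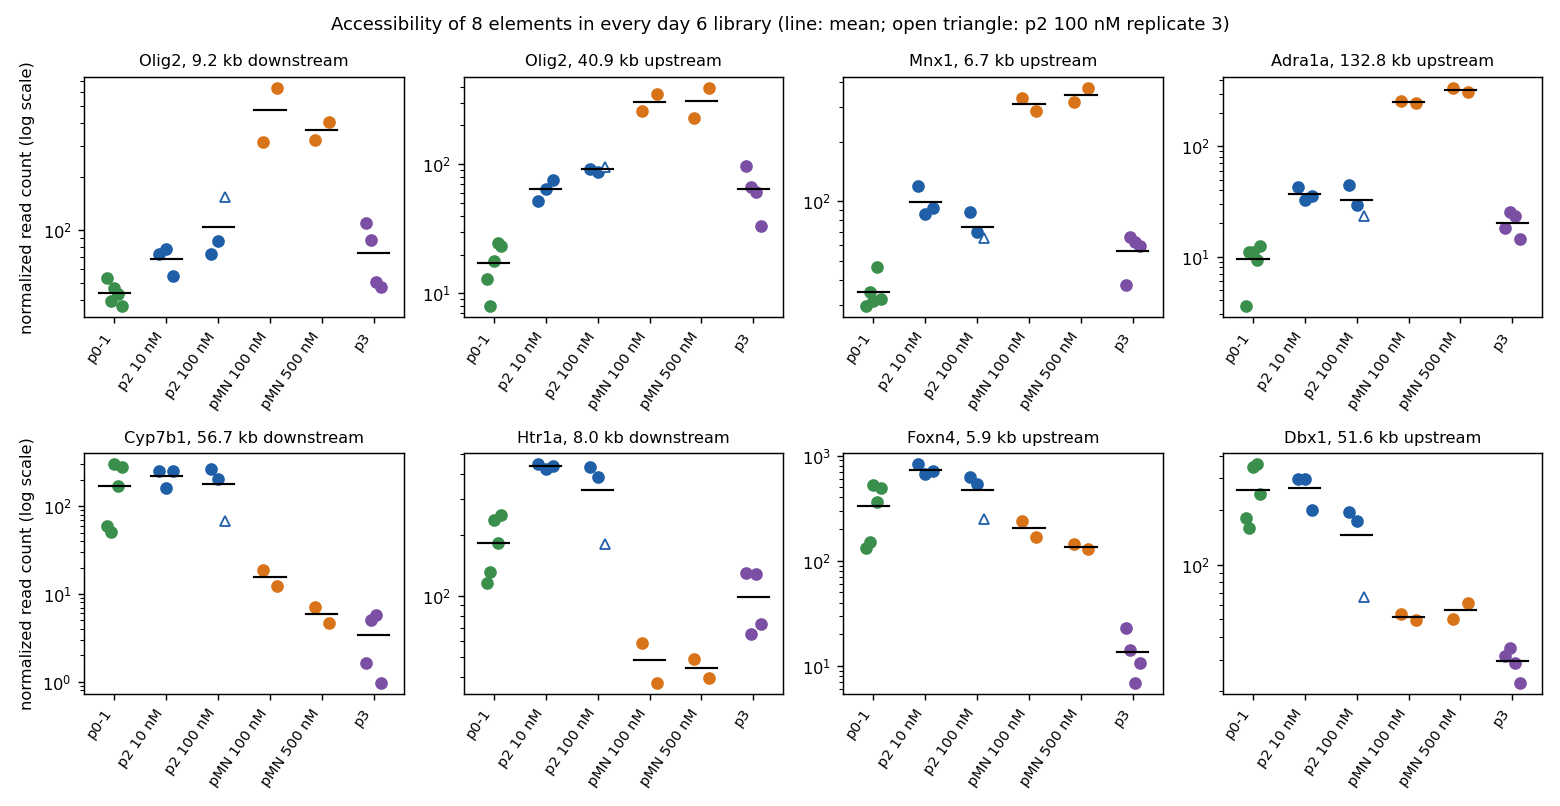
Normalized read count (log scale) of 8 elements in every day 6 library of p0-1 (green), p2 (blue), pMN (orange) and p3 (purple), by SAG for p2 and pMN, with a line at each mean and an open triangle for p2 100 nM replicate 3. The 4 elements in the upper row were high in pMN alone among these cell types, while in the lower row p0-1 was close to p2 or between p2 and pMN, and the triangle lay below the other p2 libraries.

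Only 1 of the 142 elements was at a promoter, that of Serpina3h, a serine protease inhibitor gene, 150 bp upstream. It had a normalized read count of 45.9 to 110 in p2, with a median of 62.3, and of 211, 378, 209 and 374 in pMN, a log2 ratio of -2.11 ± 0.31 (SE, adjusted p = 0.000624, limma). Among all tested elements, 20.7% were annotated as promoters. The 82 elements higher in p2 comprised 50 intergenic and 30 intronic elements, and the 60 higher in pMN 30 and 28. Their median distance from the nearest gene start was 74787 bp and 44886.5 bp, against 11319 bp over all tested elements and 23603 bp over the 26069 outside promoters. Calls were spread over 139 genes, of which 3 had 2 called elements (Cyp7b1, Fat4 and E030025P04Rik) and 0 had 3 or more.

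The elements higher in p2 were largely closed in p3, and many were open in p0-1. As a description, each was placed by whether the mean of a neighbouring domain on the VST (log2) scale lay above or below the midpoint of the p2 and pMN means. Of the 82, p0-1 was on the p2 side in 47 and on the pMN side in 35, and p3 was on the pMN side in 78. Of the 60 higher in pMN, p0-1 was on the p2 side in 60, and p3 was on the p2 side in 49 and on the pMN side in 11. These 11 were near Tdrd7, Cdca2, Kcnma1, Megf11, Mtnr1b, Gm815, Clmn, Tmem161a, Vps37b, Mir874 and Nkx2-9. In most of the set, therefore, high accessibility marked pMN against both neighbouring domains as well as against p2. Taking the median VST over the 49 elements in each library, the median library was at 8.41 in pMN, 6.34 in p2 and 5.87 in p3 at day 6. Over the 47, it was at 8.11 in p2, 7.84 in p0-1, 5.82 in pMN and 4.27 in p3. Over the 35, it was at 7.88 in p2, 6.07 in p0-1 and 5.69 in both pMN and p3.

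The library p2 100 nM replicate 3 moved with these classes. Its ratio to the mean of the 5 other p2 libraries had a median of 0.299 over the 35, where it was below all 5 at 35 of 35 elements, and of 0.472 over the 47, where it was below all 5 at 37. Over the 60 higher in pMN the median ratio was 1.52, and it was above all 5 at 34. Over all tested elements the median ratio was 0.882, and it was below all 5 at 49.1% and above at 17.4%. The contrast at these elements was therefore between 5 p2 libraries that resembled each other and pMN, with the remaining p2 library in between at many of them.

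Genes of the neighbouring domains carried some of these elements. Dbx1, a homeobox gene of p0-1, had 3 tested elements, 2 of them higher in p2 than in pMN. At the Dbx1 element 59780 bp upstream, accessibility was 419 to 723 in p2, with a median of 550, and 321, 149, 224 and 80.6 in pMN, a log2 ratio of 1.53 ± 0.41 (SE, adjusted p = 0.00437, limma), while p0-1 had a mean of 2152 ± 272 (SD, n = 5). At 51622 bp upstream of Dbx1 the log2 ratio was 1.93 ± 0.26 (SE), with an adjusted p of 0.00674 in limma that became 0.0145 with the replicate block. Gsx1, a gene of dorsal progenitors, had an element 37778 bp from its start with 460 to 921 in p2, a median of 620, and 255, 263, 151 and 147 in pMN. Of 52 tested elements of p3 and floor plate genes, 4 were higher in pMN (7.69%, against 2.41% of all tested), those at Nkx2-9, Foxa1 and Spon1 among them, and 1 in p2, at Sim1 (1.92%, against 1.57%). The element 8166 bp upstream of Nkx2-9, a homeobox gene of the ventral midline region, had 40.8 to 307 in p2, a median of 80.7, and 350, 496, 484 and 615 in pMN. The highest p2 value there was that of 100 nM replicate 3, next to the lowest pMN library, and the log2 ratio of -2.07 ± 0.53 (adjusted p = 0.00485, limma) was -2.65 without it and had an adjusted p of 0.0128 with the replicate block.

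Among 54 tested elements of Hedgehog pathway genes, 3 were higher in p2 (5.56%, against 1.57% of all tested) and 1 in pMN (1.85%, below the 2.41% of all tested) beyond a log2 ratio of 1. Without p2 100 nM replicate 3 they were 2 and 1, as 1 element of Gli3 was then not tested. The 3 belonged to Gli3, which encodes the main GLI repressor, and Boc, a Shh co-receptor, and the 1 to Gli2, which encodes the main GLI activator. At the Gli3 element 355573 bp upstream, accessibility was 421 to 701 in p2, with a median of 448, and 207, 160, 94.2 and 75.9 in pMN, with the 500 nM libraries below those of 100 nM. The log2 ratio was 1.87 ± 0.35 (SE, adjusted p = 0.000669, limma), and p0-1 was higher, with a mean of 885 ± 184 (SD, n = 5), and p3 nearly closed, at 7.80 ± 5.79 (SD, n = 4). Near Boc the log2 ratio was 1.73 ± 0.27 (SE), from 76.6 to 205 in p2 and 69.0, 38.5, 39.1 and 44.4 in pMN. In an intron of Gli2, accessibility was 533 to 1012 in p2, with a median of 716, and 1302, 1788, 1424 and 1660 in pMN, a log2 ratio of -1.06 ± 0.18 (SE). The elements of Gli3, Dbx1, Gsx1, Boc, Gli2 and Nlgn1, those of Olig2 other than at 40921 bp, those of Efnb2 and Fat4, and the second ones of Lhx3, Foxn4, Irx3, Cyp7b1 and E030025P04Rik were picked after their values were seen.

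At this threshold, 12 of 242 tested elements of axon guidance genes were higher in pMN (4.96%, against 2.41% of all tested) and 4 in p2 (1.65%, close to the 1.57% of all tested). Without p2 100 nM replicate 3 these were 15 and 13, against the 3.37% and 2.88% of all tested elements in that fit. At Efnb2, an ephrin, elements moved in opposite directions. The one 810657 bp from its start had a mean of 154 ± 35.6 in p2 (SD, n = 6) and 546 ± 114 in pMN (SD, n = 4), and the one 777043 bp from it had 151 ± 33.9 and 52.0 ± 30.8. Unc5c, a netrin receptor, had an intronic element with 122 to 348 in p2, a median of 237, and 78.9, 53.5, 35.1 and 24.5 in pMN, a log2 ratio of 2.30 ± 0.42 (SE, adjusted p = 0.00142, limma). Of 80 tested elements of classical cadherins, 5 were higher in pMN (6.25%) and 0 in p2, 4 of the 5 being at Cdh11, a type II cadherin. The Cdh11 element 42923 bp from its start had 52.1 to 168 in p2, a median of 92.1, and 239, 595, 228 and 795 in pMN, a log2 ratio of -2.28 ± 0.50.

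The counts of the other lists can be read against the 1.57% higher in p2 and the 2.41% higher in pMN of all tested elements. Of 98 elements of the Notch pathway, 2 were higher in pMN, at the repressor gene Hey2 and the ligand gene Jag1, and 0 in p2. Of 87 elements of proneural factors, 3 were higher in pMN and 1 in p2. Of 54 elements of progenitor Sox factors, 2 were higher in p2, both in Sox6, and 0 in pMN. Of 70 elements of glutamate and GABA receptors, 4 were higher in p2 (5.71%) and 1 in pMN (1.43%), the last in an intron of Grm3 at 59.8 ± 18.6 normalized counts in p2 (SD, n = 6) and 239 ± 76.3 in pMN (SD, n = 4). Of 43 elements of glial switch genes, 1 was higher in p2, in Slc1a3, the glutamate transporter of radial glia (2.01 ± 0.29), and 1 in pMN, in Nfia (-1.07 ± 0.09). Of 62 elements of postmitotic neuron genes, 2 were higher in pMN, in Snap25 and Nrxn3, and these had adjusted p of 0.0120 and 0.0182 in limma with the replicate block. Hox genes, with 54 tested elements, had 0 in either direction, as had NMP and mesoderm genes (20), neural crest genes (16) and pluripotency and endoderm genes (15). The FGF list had 2 of 69 in pMN, Wnt 2 of 83 in pMN and 1 in p2, BMP 1 of 51 in p2, retinoic acid 1 of 53 in pMN, cell cycle 1 of 43 in each direction, and the V2 list 3 of 55 in pMN (5.45%) and 2 in p2 (3.64%), those in pMN being the elements of Lhx3 and Lhx4 that the motor neuron list also holds. Without p2 100 nM replicate 3, where 2.88% and 3.37% of all tested elements were higher in p2 and pMN, the FGF list had 1 in p2 and 6 in pMN, glutamate and GABA receptors 7 and 3, postmitotic neuron genes 1 and 4, the Notch pathway 1 and 3, and glial switch genes 1 and 3. In that fit proneural factors had 1 and 2, progenitor Sox factors 2 and 1, the V2 list 2 and 2, BMP and retinoic acid 1 and 1 each, NMP and mesoderm genes 1 and 0, and pluripotency and endoderm genes 0 and 1.

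SAG differed between the groups, since p2 came from lower concentrations than pMN, and 100 nM was the condition they shared. With the 3 p2 and 2 pMN libraries of 100 nM, limma called 0 of 32573 elements (0.0%), with 4270 at an unadjusted p under 0.05, and voom on recovered reads also called 0. With the replicate number as a block, 60 were called (0.184%), 18 higher in p2 and 42 in pMN. The contrast of 10 nM p2 with 500 nM pMN (3 against 2 libraries), which uses none of the 100 nM libraries, called 416 of 33225 (1.25%), 301 higher in p2 and 115 in pMN. Of the 301, 189 were tested at 100 nM, and all 189 had the same direction, with a median log2 ratio of 1.41 there against 2.42 over the 301 in the contrast that chose them. Of the 115, 110 were tested at 100 nM, and all 110 had the same direction, with a median of -1.42 against -2.29. Only elements with a mean above 100 over the 100 nM libraries were tested there. An element low in pMN passes only if it is high in p2, and the reverse, so that the filter favours the same direction. The elements that did not pass are not described. Elements picked for a large ratio in one contrast have ratios that are too large there, so that these medians do not measure an effect of SAG. Libraries of one replicate number may also share a differentiation.

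**Figure D4:**
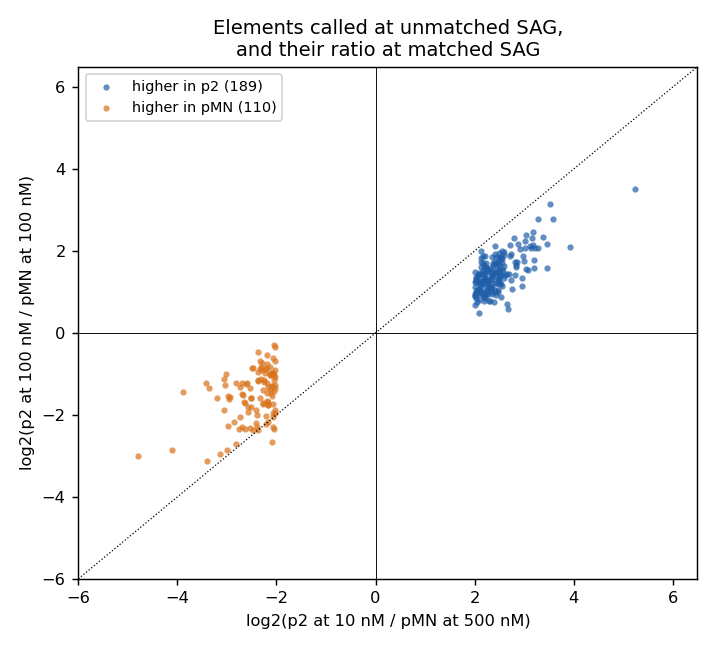
Elements called between p2 at 10 nM and pMN at 500 nM SAG, by their log2 ratio in that contrast (x axis) and at matched 100 nM SAG (y axis), in libraries that the first contrast did not use. Only elements with a mean above 100 at 100 nM are shown, a filter that favours the same direction. The 189 elements higher in p2 (blue) lie above 0 on both axes and the 110 higher in pMN (orange) below, and most are nearer to 0 on the y axis than on the dotted line of equal ratios.

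Of the 60 elements higher in pMN in the pooled comparison, 57 were tested at 100 nM and all had the same direction, with a median of -2.05. Of the 82 higher in p2, 63 were tested and all had the same direction, with a median of 1.87. These contain libraries of the pooled comparison and are no independent test. A fit with SAG concentration as a term called 14 of the 60 and 0 of the 82, with the threshold of 2 set on the VST difference instead. Its cell type term rests on the 100 nM libraries, as only these hold both cell types, so it is no independent test either. In that fit all 60 and all 82 had the same direction and a VST difference beyond 1 in size, with medians of -1.94 and 1.65. Of them, 20 and 3 had an adjusted p under 0.01 (limma). At the Mnx1 element the mean of p2 was 99.0 at 10 nM and 74.3 at 100 nM, so that the higher concentration lay further from pMN. At the intronic Olig2 element it was 734 at 10 nM and 1107 at 100 nM, nearer to pMN, and at the Foxn4 element 5852 bp upstream it was 733 and 473. These are means of 3 libraries each, and the differences between SAG concentrations within p2 were not tested.

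Fewer elements differed at earlier days. At day 5, with 6 p2 and 5 pMN libraries, 39 of 32169 elements were called (0.121%), 7 higher in p2 and 32 in pMN. At day 4, with 12 libraries, 3 of 29912 were called (0.01%), near Esrrg, Sgk1 and Psat1, all higher in pMN. Of the 39 of day 5, 22 were also called at day 6, which was 56.4% of the day 5 calls and 15.5% of those at day 6, and none of the 3 of day 4 was. Of the 39, 33 were tested at day 6, and of the 3, 1. The change of the p2 to pMN difference from day 5 to day 6, tested as an interaction in limma, was called at 0 of 32624 elements (0.0%), with 1413 at an unadjusted p under 0.05, or 2757 with the replicate block and 0 called. The larger number of calls at day 6 is thus no evidence of a change at any one element.

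The day 6 elements can be read in the day 5 libraries, which the day 6 calls did not use. At day 5 and at day 4, only elements whose mean over the p2 and pMN libraries of that day passed the filter were tested. An element low in p2 passes only if it is high in pMN, and the reverse, so that the filter favours the same direction. The counts in the same direction are thus set by the filter in part, and the elements that did not pass are not described. Of the 60 higher in pMN, 39 were tested at day 5, all 39 in the same direction and with an adjusted p under 0.01 (limma), with a median log2 ratio of -1.94. Of the 47 higher in p2 with p0-1 on the same side, 35 were tested, all 35 in the same direction and 34 with an adjusted p under 0.01, with a median of 1.53. Of the 35 with p0-1 on the pMN side, 17 were tested, all 17 in the same direction but 4 with an adjusted p under 0.01, with a median of 1.26. The median of all tested elements at day 5 was 0.02. At day 4, 16 of the 60 were tested and all had the same direction, 13 of them with an adjusted p under 0.01, while of the 82 higher in p2, 18 were tested, 17 in the same direction and 2 with an adjusted p under 0.01.

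By level, the elements higher in pMN were at their highest in pMN from day 4 on, and in the other cell types were also above the level of NMPs. Over the 60, the median library was at a VST of 4.55 in NMPs of day 3. It was at 6.27 in pMN and 5.66 in p2 at day 4, at 7.77 and 6.04 at day 5, and at 8.43 and 6.33 at day 6. In p0-1 and p3 it was at 5.45 and 5.49 at day 4 and at 5.72 and 6.23 at day 6. Over the 47 higher in p2, it was at 3.97 in NMPs, at 5.77 in p2 and 5.40 in pMN at day 4, at 7.81 and 6.31 at day 5 and at 8.11 and 5.82 at day 6. Over the 35, it was at 5.28 and 4.99 at day 4, at 6.79 and 6.12 at day 5 and at 7.88 and 5.69 at day 6. The choice of elements at day 6 sets these levels in part, and they are given as a description.

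**Figure D5:**
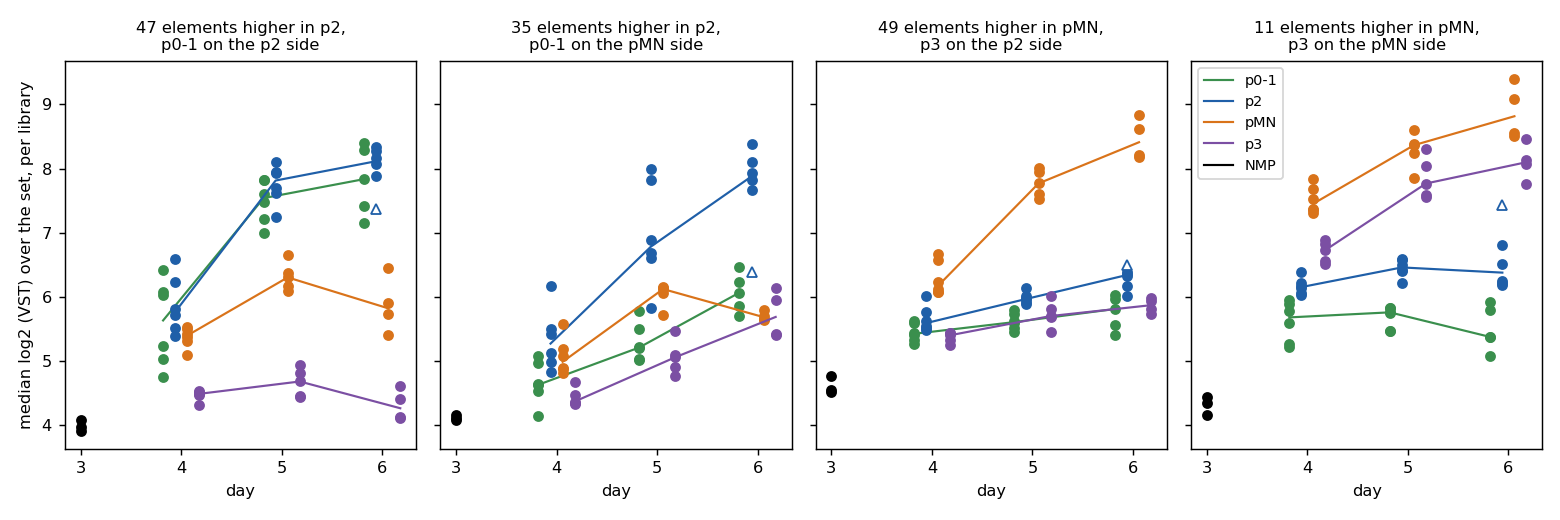
Median VST (log2 scale) over each of 4 sets of called elements in every library of NMP (black), p0-1 (green), p2 (blue), pMN (orange) and p3 (purple) by day, with lines through the median libraries and an open triangle for p2 100 nM replicate 3. In the first and second sets p2 ends at 8.11 and 7.88 and pMN below 6, and in the third pMN ends at 8.41, above p2 and p3.

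Single elements followed this course. At the Olig2 element 9237 bp downstream the mean normalized read count was 75.8 in p2 and 256 in pMN at day 4, 74.7 ± 26.9 (SD, n = 6) and 522 ± 203 (SD, n = 5) at day 5, and 86.3 ± 34.5 (SD, n = 6) and 420 ± 150 (SD, n = 4) at day 6. The difference at this element was thus present from day 4, with log2 ratios of -1.75 and -2.80 at days 4 and 5 (adjusted p = 0.00118 and 4.46e-05, limma). At the Mnx1 element the means were 73.7 and 74.9 at day 4, and 61.4 ± 29.1 (SD, n = 6) and 260 ± 79.7 (SD, n = 5) at day 5. At the Adra1a element they were 7.99 and 13.7 at day 4 and 17.9 ± 4.91 and 202 ± 49.0 at day 5, so that at these genes the difference was seen from day 5. At the Htr1a element they were 44.1 and 33.8 at day 4, 268 ± 74.2 and 66.2 ± 20.0 at day 5, and 382 ± 101 and 46.4 ± 9.89 at day 6. At the Foxn4 element 5852 bp upstream they were 129 and 94.3 at day 4 and 318 ± 148 and 158 ± 33.8 at day 5, where the log2 ratio of 1.01 had an adjusted p of 0.0569 (limma).

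Short motifs were counted in the central 300 bp of each element on both strands, as a description. CAGATG, an E-box bound by several basic helix-loop-helix factors, was in 40.2% of the 82 elements higher in p2 (95% Wilson interval 30.3 to 51.1) and in 40.0% of the 60 higher in pMN (28.6 to 52.6), against 24.1% of tested elements outside promoters and 21.0% of all tested. CATTGT, a core of SOX sites, was in 22.0% (14.4 to 32.1) and 35.0% (24.2 to 47.6), against 20.1% and 17.2%. GGAATG, a core of TEAD sites, was in 15.9% (9.51 to 25.3) and 31.7% (21.3 to 44.2), against 16.3% and 14.9%. TGGGTGG, a core of GLI sites, was in 9.76% (5.03 to 18.1) and 16.7% (9.31 to 28.0), against 8.20% and 8.16%. The E-box CAGATG had a similar share in both sets, and the shares of the other 3 were higher in the pMN set, with intervals that overlap those of the p2 set. At a log2 ratio beyond 1, CAGATG was in 32.9% of the 517 elements higher in p2 and 38.8% of the 794 higher in pMN, further apart than above, while CATTGT was in 30.0% and 33.0%, GGAATG in 15.1% and 18.6% and TGGGTGG in 7.16% and 10.6%, nearer to each other. Counted over whole elements, CAGATG was in 76.8% of the 82 and 80.0% of the 60, against 68.1% outside promoters, CATTGT in 56.1% and 65.0%, against 55.4%, GGAATG in 45.1% and 53.3%, against 56.2%, and TGGGTGG in 23.2% and 35.0%, against 34.1%. GGGCGG, a core of SP sites common at promoters, was in 8.54% and 10.0%, against 21.5% outside promoters.

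CATATG, another E-box, was in 9.76% (5.03 to 18.1) of the p2 set and 8.33% (3.61 to 18.1) of the pMN set, against 4.50% outside promoters. CAGCTG was in 24.4% and 20.0%, against 21.7%, and the homeodomain core TAATTA in 7.32% and 10.0%, against 6.96%. At a log2 ratio beyond 1 the order of CAGCTG turned, with 20.9% in p2 and 28.7% in pMN (25.7 to 32.0). For the other motifs (TGANTCA for AP-1, CCCNNGGG for EBF, AGATAA for GATA factors, ACATGT for Iroquois, TGACAG for MEIS, TTGGCA for part of an NFI site, CACTTNA for NK homeodomain factors, AATCGAT for ONECUT factors, TTCACGC for the PAX6 paired domain, ATGCAAAT for POU and GTTGCC for part of an RFX site) the intervals of both sets included the share outside promoters. The GC content of the elements was a median 44.1% in the p2 set and 47.5% in the pMN set, against 49.8% of tested elements outside promoters, and its part in these shares was not tested. Of the sequences shown above, that 40921 bp upstream of Olig2 held 2 CAGATG and 1 CATTGT, and that near Mnx1 held 1 CAGATG.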

How the data were processed

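CaTS-ATAC libraries of p2 and pMN NPs at day 6 were compared, with those of days 4 and 5, p0-1, p3 and NMPs for reference. The authors ran nf-core/atacseq on mm10 with MACS2 as peak caller, merged peaks present in 2 or more replicates into a consensus set, counted its reads with featureCounts, and deposited log2-scale values from DESeq2's variance-stabilizing transformation (VST) of normalized counts for 111638 elements. HOMER annotation was deposited for 133549. The VST was inverted to normalized read counts and reads, and 100% of recovered values below 1000 reads were whole to within 1e-06.

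Samples were grouped by their labels. An element whose mean normalized count over the compared libraries exceeded 100 was tested with limma 3.58.1 (R 4.3.3), a two-sided linear model of VST values with a variance trend, in place of the authors' DESeq2, since the deposited unit was log2. P values were adjusted by Benjamini-Hochberg over all tested elements. Calls required an adjusted p below 0.01 and that the log2 ratio of the group means lay beyond 2 in either direction, with group means floored at 0.5 and SE by the delta method. On simulated data with 100 elements changed 5-fold and 100 changed 8-fold, the day 6 fit recovered 89 and 100, with 0 false calls among 32903 elements, and the 100 nM fit 84 and 100, with 0 false calls among 32658. The simulated libraries were independent, with the same dispersion for all elements, no library set apart and no shared differentiation. These counts therefore check the code and do not measure power or false calls in the real libraries. Tables, sequences and figures used Python 3.11.15 with numpy 2.4.6, pandas 2.3.3, scipy 1.17.1 and matplotlib 3.10.9. Sequences were read from the GRCm38 reference of RefSeq, the assembly of mm10. Intervals of motif shares are 95% Wilson intervals over elements and cover counting error only.

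Replicate numbers were taken from the sample titles. Deviations of same-numbered p2 and pMN libraries from their condition means correlated at 0.399 to 0.747 (median 0.641) in the 8 pairs at day 6. Differently numbered pairs were at -0.747 to 0.581 (median -0.493). Each pMN condition has 2 libraries, whose deviations mirror each other, so that these pairs are not independent. The numbers may thus pair the samples, and fits with the number as a block were run. The descriptions number some day 6 pMN samples differently, and those numbers gave -0.747 to 0.581.

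The members and the gene lists were chosen with earlier results of these data known. Elements were named by a rule: the 10 called elements with the largest ratio in each direction whose groups do not overlap; for genes of pMN and p2 identity and motor neuron and V2 determinants, the element with the smallest p if called at a log2 ratio above 1 (for Olig2, Olig1, Irx3, Irx5, Nkx6-1, Nkx6-2 and Pax6 in any case); called promoters; and in the other lists the called element with the smallest p in each direction. Alternatives covered the filter, thresholds, scaling, block, SAG as a term, voom, averaging and leaving out each library. Expression, binding and mutant data were not analysed here. Elements of some genes that the rule names are not reported here.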

Additional observations from a re-analysis of the deposited data

Results flagged for a closer look

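Of 116 groups of libraries tested over 58 named elements, 20 held a library far from the others by Dixon's criterion, which flags about 1 in 20 groups by chance. In 16 of the 20 it was p2 100 nM replicate 3. Its normalized read count was below all other p2 libraries at Olfm4 (84.4 against 225 to 336), 1700116B05Rik (42.9 against 139 to 216), Htr1a (181 against 384 to 443), Mroh4 (46.8 against 155 to 240), Spock1 (104 against 209 to 310) and Ptprk (62.4 against 208 to 345). The same held at Foxn4 5852 bp upstream (249 against 538 to 825) and at its promoter (218 against 293 to 327), at Shox2 (352 against 683 to 889), Dbx1 51622 bp upstream (66.3 against 174 to 298), Boc (76.6 against 145 to 205) and Nlgn1 185917 bp from its start (473 against 925 to 1146). It also held at Irx3 263627 bp upstream (399 against 756 to 1015), Cyp7b1 53446 bp from its start (170 against 301 to 407) and Fat4 751250 bp from its start (68.8 against 188 to 265). At Tdrd7 this library was above the others (246 against 89.7 to 121). Over all 32893 tested elements it stood apart at 2436 (7.41%), where each other p2 library did so at 0.109% to 0.483%. The other 4 were pMN 100 nM replicate 2, low at Olfm4 (16.1 against 25.4 to 26.9) and high at Olig2 57706 bp upstream (454 against 384 to 388), and p2 10 nM replicate 3, high at E030025P04Rik (74.3 against 45.5 to 54.6) and at Gli3 355573 bp upstream (701 against 421 to 485).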

How the results depend on the processing

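The 142 calls at day 6 became 214 without p2 100 nM replicate 3, 216 with the replicate block as well, and 106 to 215 over all leave-one-out fits, the highest without pMN 100 nM replicate 2. They became 16 with SAG as a term and the threshold on the VST difference, all higher in pMN. For 10 nM p2 against 500 nM pMN there were 416, and 0 when libraries were averaged over SAG within a replicate number (6253 at an unadjusted p under 0.05 in limma). They became 1086 with no filter on the mean, 388 with a mean above 50, 89 with the threshold on the VST difference and 1311 at a log2 ratio above 1, and, chosen after seeing the data, 2061 at that ratio without p2 100 nM replicate 3 and 1377 with the replicate block. The block gave 139, the block by description numbers 143 and voom 131. At 100 nM the count of 0 became 60 with the replicate block and was 0 in every leave-one-out fit. At day 5 the 39 became 355 with no filter, 755 at a log2 ratio above 1 and 24 to 45 over leave-one-out fits, the lowest without pMN 500 nM replicate 3. At day 4 the 3 became 15 with no filter, 83 at a log2 ratio above 1 and 2 to 6 over leave-one-out fits. Change from day 5 to day 6 gave 0 in every alternative run. The cause of these moves was not tested. Of 1421 recomputed values of the 58 named elements, 1186 kept their direction and side of the threshold, 209 lost it, 26 gained it and 0 reversed. Over the 58 the replicate block moved 6 across the threshold, at Irx3 (2 elements, the one 263627 bp upstream to an adjusted p of 0.00621 in limma), Pax6, Shox2, Nkx2-9 and Dbx1. At a log2 ratio beyond 1 it also ended the calls of Insm1 (adjusted p from 0.00917 to 0.0225), Robo1 (0.00918 to 0.0254) and Grm3 (0.00837 to 0.01004). With the block, list counts higher in p2 and in pMN were 3 and 1 for p2 identity, 0 and 6 for motor neuron determinants, 1 and 4 for V2, 1 and 0 for p0-1, 1 and 3 for p3, 0 and 3 for proneural factors, 0 and 4 for FGF, 0 and 6 for cadherins, 3 and 14 for axon guidance, 3 and 2 for glutamate and GABA receptors and 0 and 0 for postmitotic neuron genes. It changed the count of no other list. Of 38 motif shares, 31 left their interval when counted over whole elements. Median widths were 1020.5 bp in the p2 set and 912 bp in the pMN set, against the window of 300 bp. A longer sequence holds more motifs, so that this count was set by length in part. Elements with a mean under 100 normalized counts were left out by the filter, and the part of depth was not tested.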
